A study of Mus musculus with 6 samples.

Results

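The aquaporins described here are the 9 mouse genes Aqp1, Aqp3, Aqp4, Aqp5, Aqp6, Aqp7, Aqp8, Aqp9 and Aqp11, in sciatic nerve with and without O-GlcNAc transferase (OGT) in Schwann cells. They were taken as every probe, other than control spots, whose gene name in the array files was one of these symbols, which gave 14 probes for 9 of the 30214 gene names on the array. The symbols were chosen from an earlier reading of these arrays, with the OGT_SCKO minus Ctrl difference of each known, so the group differences of the members are given as a description with no test. Gene expression was measured on 1 array per pool of sciatic nerves, 3 pools being littermate controls (Ctrl) and 3 being OGT_SCKO, all from mice aged 1 month. All mice of both groups were on the background that the labels spell C56 BL6. OGT is the enzyme that places the sugar O-GlcNAc on nuclear and cytoplasmic proteins, and the title of the series ties its loss in Schwann cells to remyelination and the transcription factor JUN. The Cre line, the alleles and the number of animals in a pool are not given in the sources used here. Whole nerve also holds fibroblasts, vessels, perineurium and adhering fat and muscle.

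Aquaporins are membrane proteins that assemble as tetramers with a pore in each subunit. The water channels (Aqp1, Aqp2, Aqp4, Aqp5, Aqp6, Aqp8) let water follow an osmotic gradient, and some of them also pass ions, ammonia or hydrogen peroxide. The aquaglyceroporins (Aqp3, Aqp7, Aqp9) also pass glycerol and other small solutes, and Aqp11 belongs to a divergent subfamily that resides in the endoplasmic reticulum.

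The values are log2 of the processed red signal minus the 75th percentile of the same array, so a value of 0 is a spot as bright as that percentile and each value is a level of 1 probe, not comparable between probes. The 75th percentile itself ran from 2749 to 6136 intensity units, and the share of probes well above background ran from 58.9% to 65.2% over the arrays. The array files call a spot well above background from its own signal and local background. Ogt was at 41.3% of its control level (log2 difference -1.28, SE 0.13, limma, adjusted p 0.00117). Slide 1 carried Ctrl 2 and all 3 OGT_SCKO pools and slide 2 the other 2 Ctrl pools, so differences are also given with the slide as a block, a value that rests on Ctrl 2 alone as the control of slide 1. Over 8 Schwann cell markers the mean level was 4.71, 4.93 and 4.74 in Ctrl 1, 2 and 3 and 4.65, 4.21 and 4.59 in OGT_SCKO 1, 2 and 3.

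Of the 9 aquaporins, 6 were measured, which means that every array of Ctrl or every array of OGT_SCKO showed the same probe well above background. Aqp5 and Aqp1 were higher in OGT_SCKO nerve and Aqp8 was lower, each with no overlap between the groups. The pools of Aqp4, Aqp7 and Aqp11 overlapped. At the threshold used for all genes (limma, adjusted p under 0.05 over 19058 genes) 2 members were past it on the higher side, where 11.2% of all genes were, and 1 on the lower side, where 12.1% were. The 3 OGT_SCKO pools lay above all 3 Ctrl pools in 20.4% of all genes and below them in 25.3%. These counts were used in choosing the members and nothing is read from them. The median log2 difference of the 6 measured members was -0.22 and that of all genes tested -0.07. In bulk nerve, fewer cells of a type and less RNA per cell cannot be told apart.

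**Figure D1:**
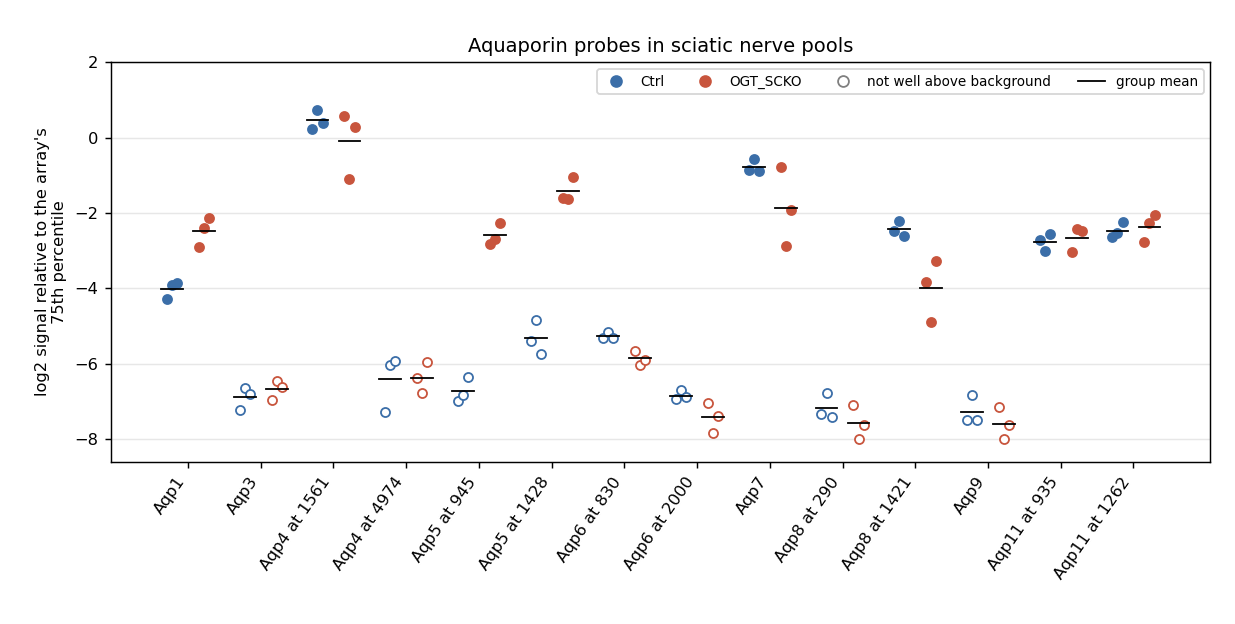
Level of each of the 14 aquaporin probes in the 6 pools, as log2 signal relative to the 75th percentile of the array, with the position of the probe in its transcript where a gene has several. Each point is 1 pool, a line is a group mean, and open points were not well above background; Aqp5 passes from open points in Ctrl to filled points in OGT_SCKO at both of its probes.

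Aqp5 is the water channel of salivary, lacrimal and airway glands, where it sits in the apical membrane of secreting cells. It had the largest difference among the measured members. Its 2 probes lie 483 bases apart in the transcript and in the genome, so they read neighbouring stretches of 1 transcript and are not independent. The probe nearer to the 5′ end covers chr15:99424655-99424714 (mouse build mm9, plus strand) and is shown because it was not well above background in any Ctrl pool and well above it in all 3 OGT_SCKO pools:

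Aqp5 probe: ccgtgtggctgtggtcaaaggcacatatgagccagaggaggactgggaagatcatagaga

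This probe gave processed signals of 32.9, 24.2 and 52.4 intensity units in Ctrl 1, 2 and 3 and of 494, 951 and 1004 in OGT_SCKO 1, 2 and 3, before scaling. On the scaled log2 level these were -6.98, -6.83 and -6.36 in Ctrl and -2.81, -2.69 and -2.26 in OGT_SCKO. All 3 OGT_SCKO pools were thus far above every Ctrl pool. The 3 OGT_SCKO pools lay close together, while the spread of the Ctrl pools is one of background values and is not read. Since Ctrl was not well above background, only a bound is given: the level was at least 5.55-fold higher in OGT_SCKO. The bound sets the mean of the OGT_SCKO pools against a floor in each Ctrl array, which is the dimmest signal still called well above background there, or the signal of the probe itself where that is brighter.

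The other Aqp5 probe, at chr15:99425138-99425197, had the brighter signal and stands for the gene. Its scaled levels were -5.40, -4.84 and -5.73 in Ctrl 1, 2 and 3 and -1.60, -1.62 and -1.04 in OGT_SCKO 1, 2 and 3. The group means were -5.32 ± 0.45 and -1.42 ± 0.33 (SD, n = 3 pools each). It too was well above background in 0 of 3 Ctrl and 3 of 3 OGT_SCKO pools. The bound for this probe was at least 12.4-fold higher in OGT_SCKO. The fitted log2 difference, which takes the dim Ctrl signals at face value, was 3.90 (SE 0.27). It was 3.42 with the slide as a block, and with normexp background correction, which pulls dim and bright signals together, 2.48, so the bounds hold for the main processing only.

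The epithelial markers that were tested, Krt5, Krt10, Krt14, Cdh1 and Trp63, did not move with Aqp5. Krt8, Krt18 and Epcam, markers of simple epithelium, were listed but not tested, so secreting gland cells were not covered by markers of their own. Of 10 listed epithelial genes 5 were tested and 3 were above background on no array. Their mean level was -0.35, 0.01 and -0.35 in Ctrl 1, 2 and 3 and -0.42, -0.98 and -0.51 in OGT_SCKO 1, 2 and 3. None of the 5 was called higher, and Krt10 and Krt14, keratins of stratified epithelium, were called lower (log2 differences -1.09 and -0.99, limma, adjusted p 0.00104 and 0.0345). Another kept probe of Krt10 was at -0.28. The adjusted p of Krt14 was 0.148 with the slide as a block and 0.163 with normexp, and Krt14 was also not past the threshold without Ctrl 1, Ctrl 2, Ctrl 3 or OGT_SCKO 3.

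Aqp1 is the constitutive water channel of red cells, kidney proximal tubule and continuous capillary endothelium, and it is present in some glia of peripheral nerve. Its single probe lies at chr6:55298480-55298539 (mm9, plus strand) and was well above background on all 6 arrays. The level was -4.27, -3.90 and -3.85 in Ctrl 1, 2 and 3 and -2.89, -2.40 and -2.12 in OGT_SCKO 1, 2 and 3. The lowest OGT_SCKO pool was above the highest Ctrl pool. The group means were -4.01 ± 0.23 and -2.47 ± 0.39 (SD, n = 3 pools each), a log2 difference of 1.54 (SE 0.22) or 2.90-fold higher in OGT_SCKO. The difference was 1.43 with the slide as a block and 1.13 with normexp.

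No endothelial marker was called higher. Their mean level over 10 genes was 0.14, 0.24 and 0.25 in Ctrl 1, 2 and 3 and -0.18, -0.20 and 0.07 in OGT_SCKO 1, 2 and 3, and their median log2 difference was -0.30. Vwf and Egfl7, both made by endothelium, were called lower (log2 differences -0.60 and -0.48, limma, adjusted p 0.0146 and 0.0350), the other 8 were not called. Under the slide block the adjusted p was 0.0859 for Vwf and 0.191 for Egfl7. Another kept probe of Vwf differed by 0.05 in place of -0.60, and the mean of the probes gave -0.28 (adjusted p 0.190), so the lower value of Vwf was seen at 1 probe. Vwf also lost its call without Ctrl 1, Ctrl 2 or Ctrl 3, and Egfl7 lost its call without any 1 of the 6 pools and with quantile normalisation (adjusted p 0.0719). Of 8 listed red cell genes 4 were tested and 4 were above background on no array. Slc4a1, the anion exchanger of red cells, was called lower (log2 difference -0.88, limma, adjusted p 0.0162), the other 3 were not called, and the median of the 4 was -0.94. Slc4a1 lost its call under the slide block (adjusted p 0.149) and without Ctrl 1 or Ctrl 3. Of 7 markers of mural cells, the contractile cells of vessel walls, 2 were called higher and 5 were not called. Their mean level was -0.53, -0.31 and -0.33 in Ctrl 1, 2 and 3. In OGT_SCKO 1, 2 and 3 it was -0.10, -0.20 and 0.16, while their median log2 difference was -0.22. Cnn1, at 3.63, was well above background in 1 of 3 Ctrl pools. Pdgfrb, at 0.69, lost its call under the slide block (limma, adjusted p 0.0635). The 5 that were not called all had log2 differences below 0. These were Acta2 at -0.94, Tagln at -0.44, Myh11 at -0.26, Des at -0.22 and Rgs5 at -0.05. The part of mural cell RNA in the Aqp1 values was not tested.

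The 250 bases before the annotated start of Aqp5 and of Aqp1, the members that were higher, and of Aqp8, which was lower, are given here from RefSeq (GRCm38.p6, a newer build than the probe positions), with CG dinucleotides in capitals. The Aqp5 window is chr15:99590778-99591027, that of Aqp1 chr6:55336049-55336298 and that of Aqp8 chr7:123462044-123462293, all on the plus strand.
Aqp5 upstream: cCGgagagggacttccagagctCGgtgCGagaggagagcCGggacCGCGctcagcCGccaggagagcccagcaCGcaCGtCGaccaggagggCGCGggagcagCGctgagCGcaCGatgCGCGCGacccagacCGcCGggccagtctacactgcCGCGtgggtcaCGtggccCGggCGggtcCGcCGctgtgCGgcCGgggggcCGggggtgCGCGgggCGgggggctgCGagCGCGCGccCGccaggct
Aqp1 upstream: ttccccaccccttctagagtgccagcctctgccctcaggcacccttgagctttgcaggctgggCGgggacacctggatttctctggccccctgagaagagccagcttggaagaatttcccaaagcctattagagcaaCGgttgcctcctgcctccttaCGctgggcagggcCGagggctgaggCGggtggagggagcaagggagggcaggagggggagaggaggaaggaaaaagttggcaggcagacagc
Aqp8 upstream: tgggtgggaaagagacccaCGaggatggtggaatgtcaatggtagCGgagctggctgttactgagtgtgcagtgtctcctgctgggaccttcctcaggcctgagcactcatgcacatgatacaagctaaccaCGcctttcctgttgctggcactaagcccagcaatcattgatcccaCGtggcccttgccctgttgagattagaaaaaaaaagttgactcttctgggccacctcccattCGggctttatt

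The Aqp5 window held 38 CG dinucleotides, at or above 98.4% of the 32851 windows in the table, against a median of 6, and a GC content of 78.4% against a median of 52.4%. The windows of Aqp1 and Aqp8 each held 5, and their GC content was 62.0% and 52.4%. Since the series is about JUN, the windows were searched for the AP-1 motif TGANTCA, which reads the same on both strands. It was in none of these 3 windows. Over the 8 members that had a window, 1 of 10 windows held it, which belonged to Aqp9, and 6.75% of all windows did. These matches describe the letters of the windows only.

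Aqp8 is a water channel of liver, pancreas and colon that also passes ammonia and hydrogen peroxide and is found in mitochondria of some cells. Its probe at chr7:130611453-130611512 (mm9) was well above background on all 6 arrays. The level was -2.46, -2.22 and -2.61 in Ctrl 1, 2 and 3 and -3.84, -4.89 and -3.27 in OGT_SCKO 1, 2 and 3. All 3 OGT_SCKO pools were below all 3 Ctrl pools, and they lay further apart from each other than the Ctrl pools did. The means were -2.43 ± 0.20 and -4.00 ± 0.82 (SD, n = 3 pools each), a log2 difference of -1.57 (SE 0.39) or 2.96-fold lower in OGT_SCKO. Without OGT_SCKO 2, the lowest pool, Aqp8 was 2.18-fold lower, and with the slide as a block the log2 difference was -1.78. With normexp it was -1.01.

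A second Aqp8 probe, at chr7:130606210-130606269, lies 1131 bases upstream in the transcript and 5243 in the genome. It was well above background on none of the 6 arrays and its log2 difference of -0.40 is between background values.

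Aqp4, the main water channel of brain astrocytes and of fast skeletal muscle fibres, had its probe at transcript position 1561 well above background on all arrays. The level was 0.24, 0.73 and 0.40 in Ctrl 1, 2 and 3 and 0.58, -1.10 and 0.27 in OGT_SCKO 1, 2 and 3. OGT_SCKO 1 and OGT_SCKO 3 lay among the Ctrl pools, and OGT_SCKO 2 alone was below them. The means were 0.46 ± 0.25 and -0.08 ± 0.89 (SD, n = 3 pools each), a log2 difference of -0.54 (SE 0.42). Without OGT_SCKO 2 the difference was -0.03, or 1.02-fold. It was -0.81 with the slide as a block. A probe 3413 bases further 3′ was well above background on none of the arrays.

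The mean of the skeletal muscle markers was lower in the OGT_SCKO pools and lowest in the same pool. Mylpf and Atp2a1 went the other way, at log2 differences of 0.56 (SE 0.57) and 0.17 (SE 0.14), neither called. Of 13 listed genes 9 were tested, 2 were above background on no array, and 6 were called lower and none higher, with Actn3, the fast-fibre alpha-actinin, at a log2 difference of -3.84 (limma, adjusted p 0.000190). Acta1, skeletal actin, was at -1.40 and Tnnt3, a fast troponin, at -1.09 (adjusted p 0.0103 and 0.0159), and Myl1, Pvalb and Myh4 were the other 3 called. Under the slide block 4 of the 6 lost their call, Acta1 (adjusted p 0.116), Myl1 (0.159), Pvalb (0.131) and Myh4 (0.194), while Actn3 (0.00478) and Tnnt3 (0.0382) did not. Tnnt3 lost its call with normexp (0.0581) and without OGT_SCKO 3 (0.0685), and Acta1, Myl1 and Myh4 with normexp as well (0.145, 0.209 and 0.241). Pvalb kept its call in 1 of the 6 fits with a pool left out, Myh4 in 2 and Myl1 in 3. The mean level of the 9 was -1.65, -1.77 and -1.53 in Ctrl 1, 2 and 3 and -2.60, -3.23 and -2.63 in OGT_SCKO 1, 2 and 3. The part of muscle RNA in the Aqp4 values was not tested.

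Aqp6, an anion-permeable channel of intracellular vesicles in kidney, had 2 probes, at chr15:99434679-99434738 and chr15:99435849-99435908 (mm9), and neither was well above background on any array. Their levels ran from -6.03 to -5.14 at the first probe and from -7.84 to -6.70 at the second. Values at background have no order, so no difference is read from them.

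Aqp7 is the glycerol channel through which adipocytes release glycerol after lipolysis, and it is also found in capillary endothelium of fat and muscle. Its probe, at chr4:40980431-40980490 (mm9, minus strand), was well above background on all 6 arrays. The level was -0.87, -0.57 and -0.88 in Ctrl 1, 2 and 3 and -0.77, -2.88 and -1.92 in OGT_SCKO 1, 2 and 3. OGT_SCKO 1 lay within the Ctrl pools, while OGT_SCKO 2 and OGT_SCKO 3 were below all of them. The means were -0.77 ± 0.18 and -1.86 ± 1.05 (SD, n = 3 pools each), a log2 difference of -1.08 (SE 0.49) or 2.12-fold lower in OGT_SCKO. Without OGT_SCKO 2 it was 1.49-fold lower. Without OGT_SCKO 1 it was 3.08-fold lower. The log2 difference was -1.29 with the slide as a block.

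Adipocyte markers were lower in OGT_SCKO as well. Of 9 listed genes 8 were tested and 4 were called lower, Cidec, Fabp4, Adipoq and Retn, none higher, and Lep was above background on no array. The median log2 difference of the 8 was -2.56. Their mean level was -2.26, -0.55 and -0.80 in Ctrl 1, 2 and 3 and -3.52, -4.91 and -2.81 in OGT_SCKO 1, 2 and 3, so Ctrl 1 was the lowest Ctrl pool and OGT_SCKO 2 the lowest of all. OGT_SCKO 1 was low in these markers and not low in Aqp7. Cidec and Adipoq were well above background in 1 of 3 OGT_SCKO pools and Retn in 2 of 3, so their differences are not exact. Fabp4, a fatty acid carrier, was above it in all pools and had a log2 difference of -2.51 (SE 0.58, limma, adjusted p 0.0246). Adiponectin (Adipoq) was at -4.24 (adjusted p 0.0289), at -3.66 with dim values raised to the floor and at -2.35 with normexp, where it lost its call (adjusted p 0.0800). With normexp the adjusted p was 0.155 for Cidec, 0.0508 for Fabp4 and 0.0599 for Retn. Under the slide block the adjusted p was 0.0623 for Cidec, 0.0711 for Fabp4, 0.0959 for Adipoq and 0.0991 for Retn. All 4 lost their call without Ctrl 2 or Ctrl 3, and Adipoq also without OGT_SCKO 1. The part of fat RNA in the Aqp7 values was not tested.

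**Figure D2:**
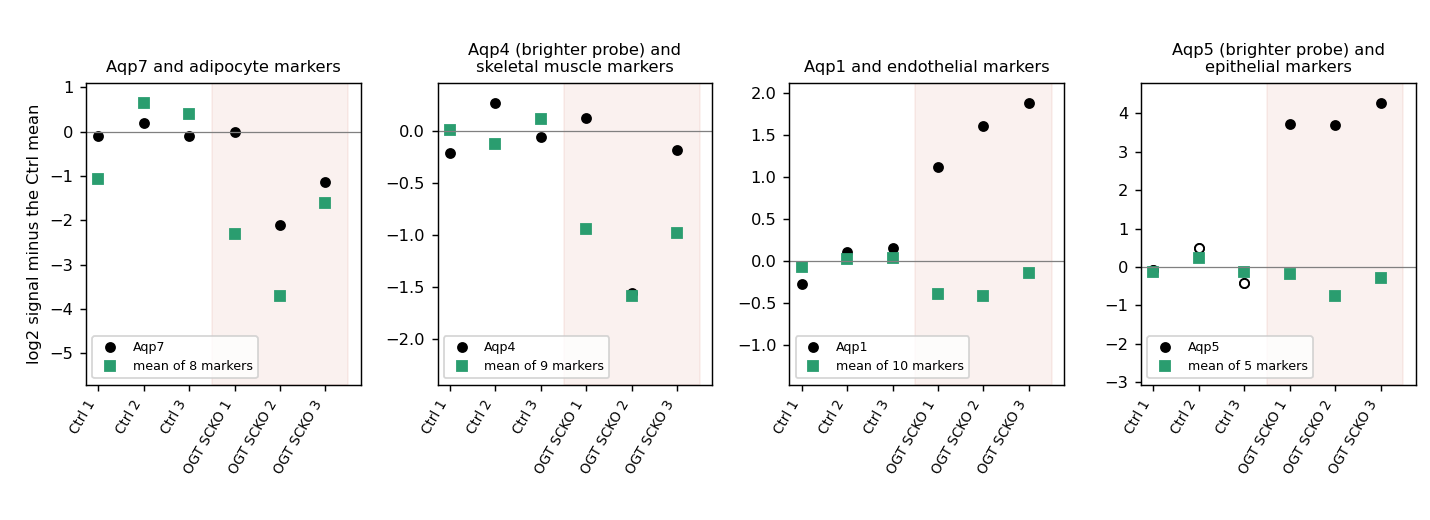
Level of 4 aquaporins (circles, open where not well above background) and the mean level of the tested markers of a cell type set beside each (squares) in the 6 pools, as log2 signal minus the mean of the Ctrl pools, with OGT_SCKO pools shaded. OGT_SCKO 2 is the lowest pool for Aqp7, Aqp4 and the fat and muscle markers, while Aqp1 and Aqp5 are above Ctrl in all 3 OGT_SCKO pools and endothelial and epithelial markers are not.

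The other aquaglyceroporins were at background. Aqp3, the glycerol channel of skin and kidney collecting duct, had 1 probe at chr4:41039962-41040021 (mm9), with levels from -7.23 to -6.45. Aqp9, the channel for glycerol uptake into liver, had 1 at chr9:70978252-70978311, with levels from -7.99 to -6.83. Neither was well above background on any of the 6 arrays, so at this signal no difference was detectable.

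Aqp11 has 2 probes, at chr7:104874889-104874948 and chr7:104877482-104877541 (mm9, minus strand), which lie 327 bases apart in the transcript and 2593 in the genome. Both were well above background on all 6 arrays. The brighter gave -2.63, -2.52 and -2.24 in Ctrl 1, 2 and 3 and -2.78, -2.27 and -2.06 in OGT_SCKO 1, 2 and 3. The groups overlapped throughout, with a log2 difference of 0.09 (SE 0.21), a size below its own error. The other probe gave a log2 difference of 0.11. Over the alternative settings the difference of Aqp11 ran from -0.06 to 0.30.

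**Figure D3:**
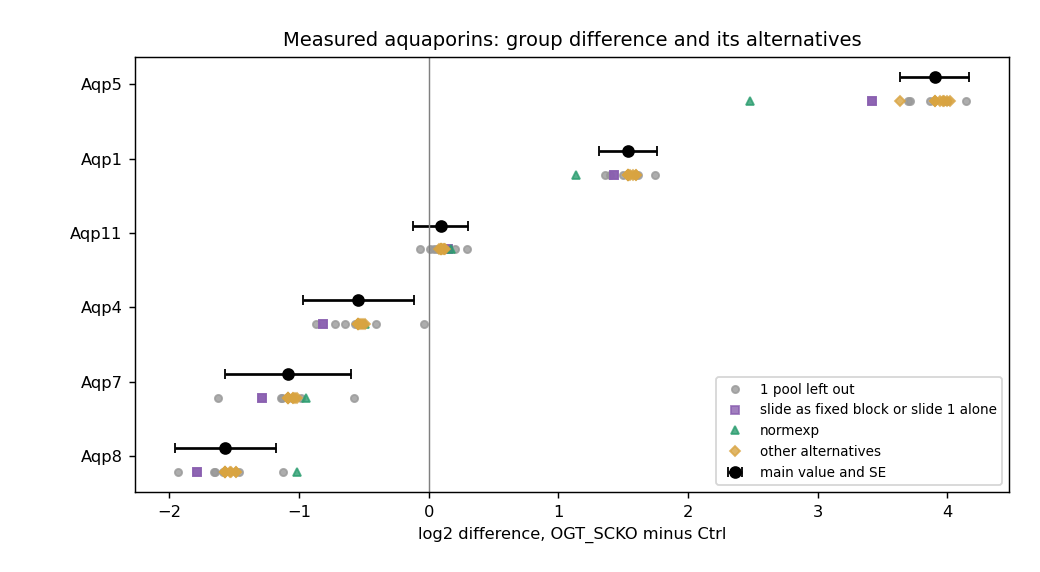
Log2 difference (OGT_SCKO minus Ctrl) of the 6 measured aquaporins with its standard error, and the same value under each alternative processing or with 1 pool left out. Aqp5 and Aqp1 stay above 0 and Aqp8 and Aqp7 below it in every setting shown, with Aqp5 between 2.48 and 4.14, while Aqp11 lies on both sides of 0.

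There were 3 other genes of the family on the array, with 1 probe each. Aqp2, the vasopressin-regulated water channel of the kidney collecting duct, was at -1.08, -0.94 and -1.10 in Ctrl 1, 2 and 3 and at -1.38, -2.00 and -1.61 in OGT_SCKO 1, 2 and 3. All 3 OGT_SCKO pools were lower than the Ctrl pools. The log2 difference was -0.62 (SE 0.17), or 1.54-fold lower, with an adjusted p of 0.0429 (limma). That call was lost with the slide as a block (adjusted p 0.153), with normexp (adjusted p 0.122) and without Ctrl 1, Ctrl 2, Ctrl 3 or OGT_SCKO 3, and the adjusted p ran from 0.0213 to 0.276 over its 19 alternatives. Mip, the lens water channel also called aquaporin 0, was above background on no array, and Aqp12, of the Aqp11 subfamily, on OGT_SCKO 3 alone.

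Aqp5 and Aqp2 are next to each other in the mouse genome, in a cluster of aquaporin genes with Aqp6. In the gene table of GRCm38.p6 the first base of Aqp2 lies 12.0 kb before that of Aqp5 and that of Aqp6 lies 7.44 kb after it. Aqp2 was thus lower and Aqp5 higher within the cluster, and Aqp6 was at background. The next protein-coding genes on one side were Racgap1, a regulator of cytokinesis, at a log2 difference of 0.52 (SE 0.13, limma, adjusted p 0.0310) and Asic1, an acid-sensing ion channel, at 0.95 (SE 0.13, adjusted p 0.00393). Asic1 was well above background in 1 of 3 Ctrl pools, and with dim values raised to the floor its difference was 0.56 and the call was lost (adjusted p 0.0718). With the slide as a block the adjusted p was 0.205 for Racgap1 and 0.0416 for Asic1, and with normexp it was 0.0576 and 0.202. Racgap1 also lost its call without Ctrl 1, Ctrl 2, Ctrl 3 or OGT_SCKO 3. On the other side Faim2 was not measured and Bcdin3d was at -0.03 (SE 0.13, adjusted p 0.874). Aqp7 and Aqp3 are neighbours too, 59.6 kb apart on chromosome 4.

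**Figure D4:**
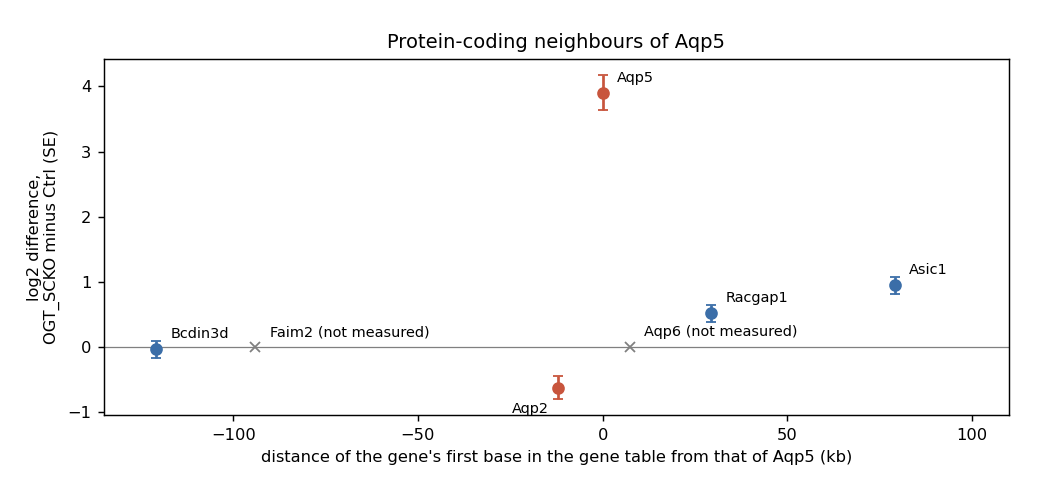
Log2 difference (OGT_SCKO minus Ctrl, with its standard error) of the protein-coding genes around Aqp5 against the distance of each gene's first base from that of Aqp5 in kb. Aqp5 is at 3.90, its neighbour Aqp2 at -0.62, and crosses are genes with no measured probe.

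The genes with the level profile nearest to each member were found over the 6 arrays as the smallest root mean square distance on the log2 scale, after each profile was centred on its own mean. For Aqp5 they were the prolactin family gene Prl2a1, the decarboxylase gene Gadl1 and Btc, the ErbB ligand betacellulin. Like Aqp5, these 3 were well above background in 0 of 3 Ctrl and 3 of 3 OGT_SCKO pools, so their likeness rests partly on background values and no distance or order is given. They were at least 3.52-fold (Prl2a1), 2.64-fold (Gadl1) and 2.43-fold (Btc) higher in OGT_SCKO. For Aqp1 they were Rasd1 (distance 0.11), Ddit4l (0.14) and Nek2, a mitotic kinase that was above background in no Ctrl pool. For Aqp8 they were Unc93a2 (0.25) and 2 genes above background in no OGT_SCKO pool, Olfr318 and Chrna6. The nearest to Aqp7 were Fcer2a (0.05), G6bos (0.08) and Gnat1, which was above background in 1 of 3 OGT_SCKO pools, to Aqp4 Fbxw21 (0.04), Zfp408 (0.05) and Aspdh (0.05), and to Aqp11 Sla (0.08), S1pr1 (0.08) and Gli2 (0.08). None of these was chosen for its function. All were chosen for a profile like that of the member, so the direction and rough size of their differences follow from that choice. The 6 arrays give only a coarse profile.

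Genes that work with aquaporins were followed in 4 lists with 68 genes in all. Of the 67 tested, 6 were called higher and 7 lower (limma, adjusted p under 0.05 over all genes), against 11.2% and 12.1% of all genes, and their median log2 difference was -0.07. With the slide as a block 2 were called higher and 1 lower, against 682 and 544 of all 19058 genes. Without the filter on dim probes Agrn, Sgce, Trpv4, Gpd2, G0s2 and Nox4 lost the calls given for them here, as did G0s2 and Nox4 with normexp, G0s2 with median scaling, and Sgce with quantile normalisation or the deposited values.

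Aqp4 is held at the membrane by the dystrophin complex, with which the potassium channel Kir4.1 also associates. All 16 genes of that list were tested, 2 were higher, 2 lower and 12 not called, with a median of -0.13. These counts rest on the brightest kept probe of each gene. Dmd, which encodes dystrophin, was at -0.02 there and was not called, and its 2 other kept probes were at -1.18 and 0.01. Kcnj10, which encodes Kir4.1, rose by 1.19 (log2, SE 0.15, limma, adjusted p 0.00316, with the slide as a block 0.0397), and Dtna, which encodes dystrobrevin alpha, by 0.75 (SE 0.11, adjusted p 0.00465, with the slide block 0.0513). Agrn, the basal lamina proteoglycan agrin, was at -0.50 (SE 0.10, adjusted p 0.0147) and Sgce, epsilon-sarcoglycan, at -0.45 (SE 0.10, adjusted p 0.0213). The calls of Agrn and Sgce were lost with the slide block (0.121 and 0.128) and without Ctrl 1, Ctrl 2, Ctrl 3 or OGT_SCKO 3.

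Of 20 genes of cell volume and osmotic response, 1 was higher, 3 were lower and 16 were not called, with a median of -0.12. Akr1b3, the aldose reductase that makes the osmolyte sorbitol, had the largest difference of the list at -1.81 (SE 0.19, limma, adjusted p 0.00165, with the slide block 0.0213), or 3.50-fold lower. Slc5a3, which imports the osmolyte myo-inositol, was higher by 0.73 (SE 0.13, adjusted p 0.00913). Wnk1, a kinase that controls cation chloride cotransport, was at -0.59 (SE 0.10, adjusted p 0.00749), and Trpv4, a swelling-gated calcium channel, at -0.50 (SE 0.13, adjusted p 0.0382). Under the slide block the adjusted p was 0.0669 for Slc5a3, 0.0875 for Wnk1 and 0.161 for Trpv4. Trpv4 kept its call in 1 of the 6 fits with a pool left out, the one without OGT_SCKO 1.

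Among 13 genes of glycerol release and use, the substrate side of Aqp7, 2 were higher, 2 lower and 9 not called, with a median of -0.18. Gk, the glycerol kinase, was higher by 0.73 (SE 0.13, limma, adjusted p 0.0107, with the slide block 0.0415) and Gpd2, the mitochondrial glycerol phosphate dehydrogenase, by 0.49 (SE 0.11, adjusted p 0.0267, with the slide block 0.215). Mgll, the lipase that frees glycerol from monoglycerides, was at -0.58 (SE 0.11, adjusted p 0.0131, with the slide block 0.0883) and G0s2, an inhibitor of triglyceride lipase, at -0.50 (SE 0.14, adjusted p 0.0481, with the slide block 0.236). Gk lost its call without OGT_SCKO 3. Mgll lost its call without Ctrl 2, Ctrl 3 or OGT_SCKO 3, and Gpd2 without Ctrl 1, Ctrl 2, Ctrl 3 or OGT_SCKO 3. G0s2 lost its call without any 1 of the 6 pools. The lipid droplet coat gene Plin1, also an adipocyte marker, was at -1.98 (adjusted p 0.0507) and Pck1, a gluconeogenic enzyme that fat uses to make glycerol, at -3.01 (adjusted p 0.0511), neither past the threshold.

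Of 19 genes that make or remove hydrogen peroxide, a solute of Aqp8, 18 were tested, 1 was higher, none was lower and 17 were not called, with a median of -0.00. The one called was Nox4, an oxidase that releases hydrogen peroxide, at 1.09 (SE 0.25, limma, adjusted p 0.0234). The call was lost with the slide as a block (adjusted p 0.195) and without Ctrl 1, Ctrl 3 or OGT_SCKO 3.

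**Figure D5:**
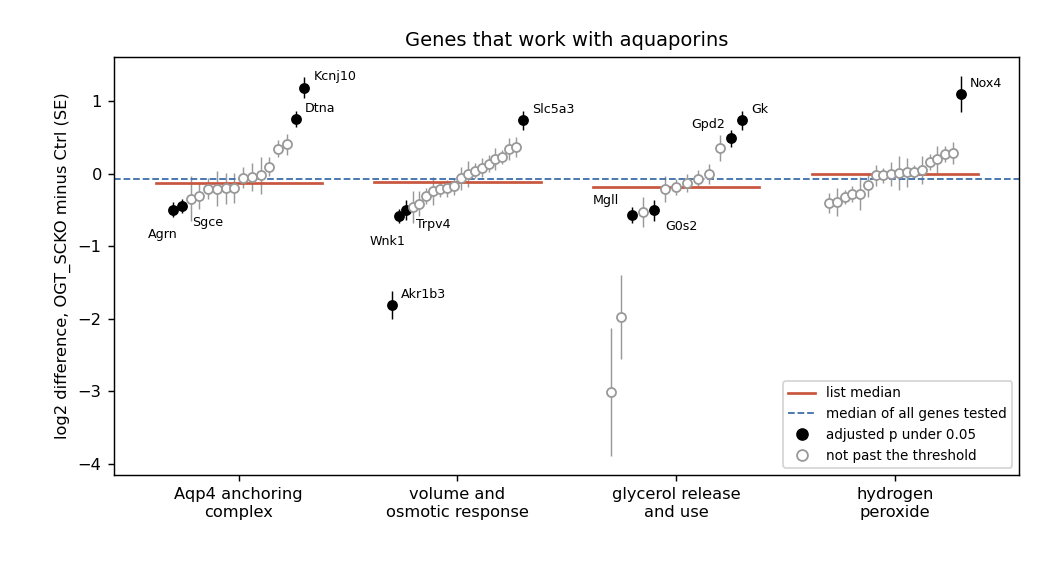
Log2 difference (OGT_SCKO minus Ctrl, with its standard error) of each tested gene in 4 lists of genes that work with aquaporins. Filled points are past the adjusted p of 0.05 and named; the list medians lie between -0.18 and -0.00, next to the median of all genes at -0.07, and Kcnj10 and Akr1b3 stand at 1.19 and -1.81.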

How the data were processed

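Total RNA of sciatic nerve was labelled with 1 red dye and put on 6 arrays, per the labels' protocols. Spots were read with Agilent Feature Extraction 11.5.1.1, per the submitters' processing notes. Its deposited intensity values have background subtracted, per the file headers, and were not normalised between arrays. The deposited other flags mark spots well above background, saturated (0 here) or outlying. The authors' deposited log2 values served as an alternative, with no processing stated in the sources used here.

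Each array was scaled by its own 75th percentile of the processed signal and log2 taken, without control and outlier spots. Of 39429 probes, 24287 stood well above background throughout Ctrl, OGT_SCKO or both. The brightest kept probe stood for each of 19058 genes. Probes were named by accession (27655) or by file name (11774). The group fit used limma 3.58.1 (lmFit, eBayes; R 4.3.3) with Benjamini-Hochberg adjustment over all genes and was checked on simulated data. The p-values set a group difference against the spread between pools, with the variance of each gene moderated over all genes. An exact two-sided permutation test of 3 against 3 cannot go below p = 0.1 and was not used. The number of arrays limits the precision. Probe positions are those of the files (mm9), whose exon and UTR annotation was not used here.

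The members and all lists were chosen with earlier results of these data known. Named genes were the 9 members, other family genes, up to 4 called genes of each pathway list and the 3 nearest profiles of each measured member. For cell markers the plan was up to 3 genes with the smallest p of each list whose median moved with the members. The medians of the endothelial, red cell, mural and epithelial lists did not move with Aqp1 or Aqp5, and their called genes were named outside that plan. Retn, Myl1, Pvalb, Myh4, Mylpf, Atp2a1, Plin1, Pck1, Lep, Krt5, Cdh1, Trp63, Krt8, Krt18 and Epcam fall outside these rules. So do Acta2, Tagln, Myh11, Des, Rgs5, Dmd and the neighbours of Aqp5, and all of these were named after their values were seen. Alternatives were other scalings, background corrections, filters and probe rules, the deposited values, slide and replicate blocks, a robust variance model, a floor on low values and leaving out each pool.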

Additional observations from a re-analysis of the deposited data

How the results depend on the processing

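The log2 difference of Aqp1, Aqp4, Aqp5, Aqp7 and Aqp8 kept its sign in every alternative that could be run, and that of Aqp11 in 18 of 19. Aqp5 had no value where probes had to be well above background on all 6 arrays, which left 1 aquaporin called higher there. Calls depended more on the setting. In the main setting the aquaporins called were Aqp5 and Aqp1, both higher, and Aqp8, which was lower. The members were chosen with their differences in these arrays known, so their calls below are a description and no support for those differences. With normexp 0 aquaporins were called lower, as were 1224 of all 19058 genes, against 1 and 2312 in the main setting. Genes called in all were 2722 with normexp and 4438 in the main setting. With no filter on dim probes 0 aquaporins and 3 pathway genes were called lower, as were 1307 of 30324 genes, with 2629 called in all. With the mean of a gene's probes 11 pathway genes were called lower, as were 2372 of all 19058 genes, with 4610 called in all. Aqp1 and Aqp8 lost their calls with the slide as a fixed block, where Aqp5 kept its call. In that fit 1 aquaporin was called higher and 0 lower, 2 pathway genes higher and 1 lower, and 1226 genes in all. With slide 1 alone, which leaves 1 Ctrl pool, assumed to vary like the others, these were 1 and 0, 0 and 0, and 422. Leaving out 1 pool gave 0 to 2 aquaporins called lower (0 without any 1 Ctrl pool, 2 without OGT_SCKO 1) and 2 called higher, 3 to 8 pathway genes called higher and 2 to 8 lower, and 1982 to 5583 genes in all, the fewest without OGT_SCKO 3.

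Whether the replicate numbers pair the pools is not known. Deviations from the group means over all genes correlated at -0.27, -0.53 and 0.06 between same-numbered pools. These values cannot decide it, since the slides were uneven between the groups and may enter them. With the replicate block 0 aquaporins were called lower, 2 pathway genes higher and 1 lower, and 1475 genes in all. Aqp3, Aqp6 and Aqp9 are limited by signal at background.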
